A study of Mus musculus with 18 samples.

Results

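The nuclear-encoded genes of the mitochondrial respiratory chain were followed across 18 mouse RNA-seq libraries labelled as thalamus. Members were the rows of the deposited count table whose symbol names a subunit of complexes I to V (symbols beginning Nduf, Sdh, Uqcr, Cox or Atp5 in the subunit series). The rule took 88 of 50559 rows: 40 for complex I, 4 for complex II, 8 for complex III, 19 for complex IV and 17 for complex V. Of these, 85 had enough counts to be tested. Ndufa11b, Cox7a1 and Cox8c did not, with at most 9 counts in any library. Ndufa4, whose protein is now placed in complex IV, was counted there. A subgroup of 76 rows was called broadly expressed, which left out 5 further copies of subunit genes and 7 isoforms known mainly from particular tissues.

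All mice were labelled wild type. The control group received saline, the model group a treatment labelled Coll IV, and the intervene group Coll IV with remodelin, named in the series title as an inhibitor of the acetyltransferase NAT10. Each group had 6 libraries of polyA RNA. The title places the work in thalamic hemorrhage, so the comparisons ask how gene expression differed after the hemorrhage treatment and with remodelin added. The labels give no sex, age or time, do not say what Coll IV stands for, and do not state that each library is a separate animal. P-values therefore measure the spread between these samples, which may be in part technical.

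The respiratory chain passes electrons from NADH and succinate to oxygen and pumps protons across the inner mitochondrial membrane. Complex I (NADH dehydrogenase) and complex II (succinate dehydrogenase) feed electrons to ubiquinone, complex III hands them to cytochrome c, complex IV (cytochrome c oxidase) reduces oxygen, and complex V (ATP synthase) uses the proton gradient to make ATP. Most subunits are encoded in the nucleus and imported, while a small core of complexes I, III, IV and V is encoded in mitochondrial DNA. Neurons depend heavily on this machinery to restore ion gradients.

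Many of these genes are known targets of the transcription factors NRF1 and GABP (an ETS factor, also called NRF-2), so their promoters were searched for both sites. The 250 bases before the annotated start were taken from RefSeq (build GRCm38.p6), where 69 of the 88 members were matched. A gene was counted if any of its listed promoters held the motif. The NRF1 motif was GCGCA and GCGC with any 1 base between them, read on both strands. It was present for 13 of 69 members (18.8%) and for 4.23% of all 27025 genes with a promoter entry. The ETS motif CCGGAAG, read on both strands, was present in 12 of 69 (17.4%) and in 7.83% of all. Neither motif contains the other, and Atp5h, Sdhd and Cox6a1 held both. A match is a stretch of letters and not a measured binding site. The pieces next to the start follow for 7 members that the results turn on, 5′ to 3′ on the gene's strand, with motif letters in capitals. Cox6b1 is shown beside its restricted partner Cox6b2, and Cox8b, the isoform of heart and skeletal muscle, stands with them.
Cox6a1 (chr5:115348959-115349138, minus strand): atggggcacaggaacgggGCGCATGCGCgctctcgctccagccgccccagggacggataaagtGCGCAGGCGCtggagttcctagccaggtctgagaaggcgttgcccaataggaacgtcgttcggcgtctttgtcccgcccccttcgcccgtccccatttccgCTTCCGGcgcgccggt
Cox6b1 (chr7:30626115-30626214, minus strand): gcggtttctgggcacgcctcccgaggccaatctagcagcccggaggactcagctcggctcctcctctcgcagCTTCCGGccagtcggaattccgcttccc
Cox6b2 (chr7:4753095-4753194, minus strand): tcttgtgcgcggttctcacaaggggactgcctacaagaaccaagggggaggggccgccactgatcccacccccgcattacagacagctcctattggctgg
Cox8b (chr7:140900447-140900546, minus strand): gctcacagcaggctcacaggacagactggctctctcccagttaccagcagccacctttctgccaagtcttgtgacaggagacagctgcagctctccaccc
Atp5e (chr2:174464102-174464231, minus strand): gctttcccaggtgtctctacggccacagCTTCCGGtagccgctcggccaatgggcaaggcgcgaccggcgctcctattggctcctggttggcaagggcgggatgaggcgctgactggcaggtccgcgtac
Ndufb7 (chr8:83566658-83566757, plus strand): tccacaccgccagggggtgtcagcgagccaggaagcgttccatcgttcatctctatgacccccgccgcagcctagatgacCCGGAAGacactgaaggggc
Ndufa12 (chr10:94198935-94199034, plus strand): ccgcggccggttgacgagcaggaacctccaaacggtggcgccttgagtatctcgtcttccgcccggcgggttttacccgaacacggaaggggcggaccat

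The Cox6a1 piece held 2 NRF1 matches and 1 ETS match. The Cox6b1 piece held 1 ETS match, while the pieces of Cox6b2 and Cox8b held neither motif. Atp5e and Ndufb7 each held 1 ETS match, and Ndufa12 held none.

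The libraries held between 28481225 and 118461420 counts, with control replicate 1 the deepest, and the 88 members together took from 1.63% to 2.14% of the counts of a library. Within each group, libraries numbered 1 to 3 and libraries numbered 4 to 6 differed in markers of brain region. The labels do not say what the numbers stand for, and this split was noticed in an earlier analysis of the same data. The 14 thalamic neuron markers summed to 677.53 to 1086.96 CPM in replicates 1 to 3 of the 3 groups. In replicates 4 to 6 they summed to 265.02 to 304.18 CPM in control, 323.34 to 496.27 CPM in model and 617.98 to 841.09 CPM in intervene. None of the 14 was at 0 throughout a set. Tcf7l2, a transcription factor that marks thalamic neurons, measured 53.6 to 144 CPM in replicates 1 to 3 of the 3 groups, but 3.82 to 5.05 CPM in replicates 4 to 6 of control and 4.80 to 10.5 CPM in those of model, and 32.8 to 48.6 CPM in those of intervene. Slc17a7, the vesicular glutamate transporter typical of cortex and hippocampus, measured 53.5 to 557 CPM in control replicates 1 to 3 and 1583 to 1670.2 CPM in control replicates 4 to 6. These values go against the tissue label of control and model replicates 4 to 6, and the group comparisons are therefore also given within replicates 1 to 3. The 15 cortical and hippocampal neuron markers ran from 901.24 to 5817.03 CPM in replicates 1 to 3 and from 4115.02 to 10321.56 CPM in replicates 4 to 6. In RNA from tissue, fewer cells of a type and less RNA per cell cannot be told apart.

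Levels between genes were compared per length, on the deposited FPKM values. These are lower than conventional FPKM by a factor of 2, because the gene length that they imply is exactly 2 times the RefSeq length for 13 of 13 mitochondrially encoded mRNAs. They are used here for order and ratios. Complex IV held the most abundant messages. Cox4i1, the subunit isoform of most tissues, averaged 656 ± 71.3 FPKM (SD, n = 18), Cox8a 549 ± 76.6 and Cox6a1 490.4 ± 87.7. Their ranges over the libraries overlapped, at 512 to 781, 449 to 733 and 376 to 652 FPKM. The ATP synthase catalytic subunit Atp5b (now Atp5f1b) followed at 396 ± 24 FPKM and was among the least variable members, with a range of 356 to 437.

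**Figure D1:**
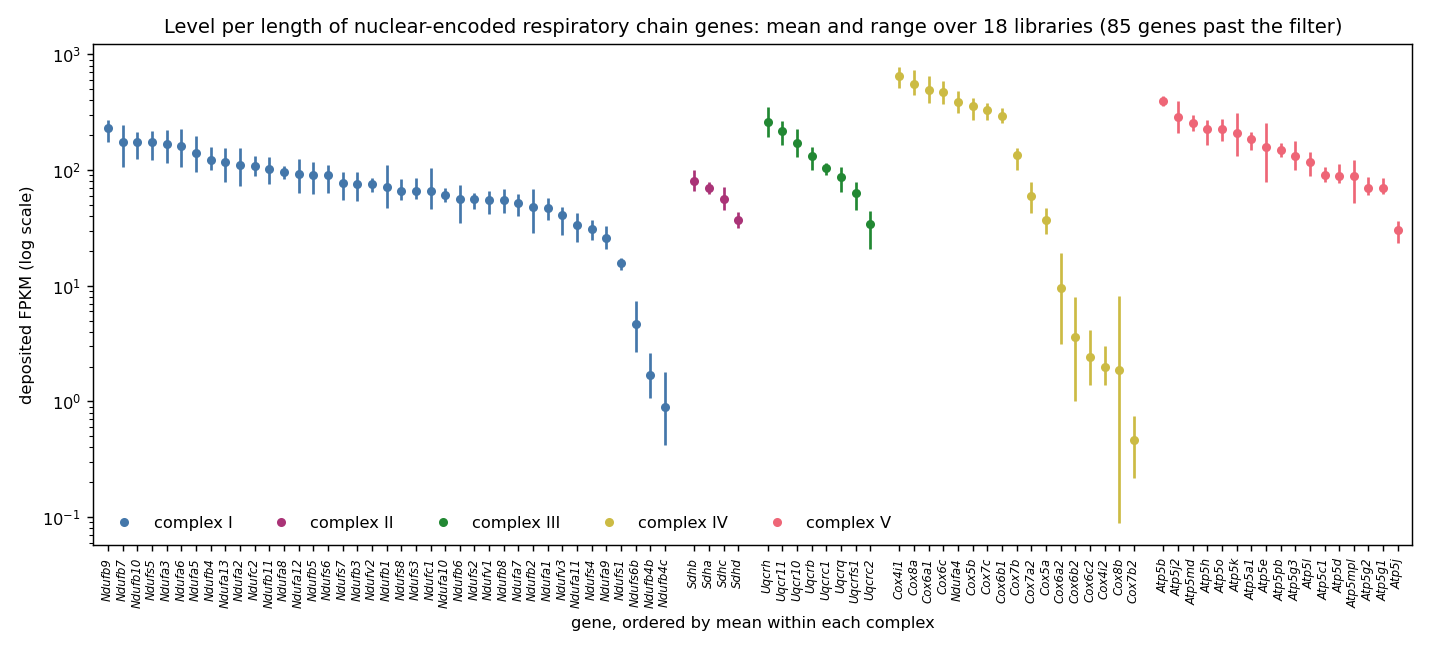
Deposited FPKM (log axis) of the 85 tested members, ordered by mean within each complex, with points for the mean and lines for the range over 18 libraries. Broadly expressed members sit between 15.9 (Ndufs1) and 656 (Cox4i1), and the isoforms and further gene copies sit below 10.

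The subunits of complex I that carry redox centres were at similar levels per length, apart from one. Ndufs7 and Ndufs8, which hold iron-sulphur clusters near the quinone site, averaged 76.6 ± 12.3 and 66.0 ± 7.39 FPKM. Ndufv1, which binds NADH and carries the flavin, averaged 55.4 ± 7.12 FPKM, and its partner Ndufv2 75.0 ± 6.68 FPKM. Ndufs1, which carries several iron-sulphur clusters, was listed at 15.9 ± 1.02 FPKM with a length of 3657 bases, the longest of the core subunits. The length used by the authors thus weighs on its place. Accessory subunits reached from 26.0 ± 3.09 FPKM for Ndufa9 to 230.1 ± 26.4 for Ndufb9, with Ndufb7 next to the highest at 175 ± 39 FPKM.

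In complex II the flavoprotein Sdha averaged 70.3 ± 5.47 FPKM and the iron-sulphur subunit Sdhb 80.0 ± 7.72. The membrane anchors Sdhc and Sdhd averaged 56.6 ± 6.74 and 36.7 ± 2.98 FPKM. In complex III the hinge protein Uqcrh averaged 259.9 ± 45 FPKM and Uqcr11 217 ± 28.1, against 63.0 ± 7.99 for the Rieske iron-sulphur protein Uqcrfs1 and 33.9 ± 6.81 for the core protein Uqcrc2. The members of a complex, which stand in fixed ratios in the protein, therefore spread over more than a factor of 10 in mRNA per length in complexes I, IV and V (15.9 to 230.1, 37.3 to 656 and 30.2 to 396 FPKM over the broadly expressed members). The lowest of each, Ndufs1, Cox5a and Atp5j, also had long implied lengths of 3657, 3153 and 4137 bases.

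Isoforms known from other tissues formed a small part of each pair in every library. Cox4i2, known from lung and from pericytes in brain, made up 0.306% ± 0.068 (SD, n = 18) of the FPKM of the Cox4i pair. Cox6a2, the heart and muscle isoform that is also known from parvalbumin interneurons, made up 1.83% ± 0.582 of the Cox6a pair. Cox6b2, known from testis, made up 1.20% ± 0.630 of the Cox6b pair, and Cox7b2 0.356% ± 0.128 of the Cox7b pair. Cox8b, the isoform of heart, skeletal muscle and brown fat, was the most variable, with 0.0137% to 1.56% of the Cox8 pair. The deposited counts of Cox7a1 ranged from 0 to 9 and those of Cox8c from 0 to 1.

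Against control, the model group showed no called change in any member. Of the 85 members, 0 were higher and 0 lower (0% of all genes tested were called in either direction), by edgeR's quasi-likelihood test with Benjamini-Hochberg adjustment at 0.05. Intervene against model gave 0 and 0 (0% of all genes), and intervene against control gave 0 and 0 (0% of all genes). At an unadjusted p under 0.05 there were 1, 1 and 2 members, and DESeq2 and limma-voom also called none. The median log2 difference over the members was 0.02 for model-control, 0.01 for intervene-model and 0.03 for intervene-control. Over all genes it was 0.00 in each. Within replicates 1 to 3 the model-control median was -0.11, with 9 members positive and 76 negative. Within replicates 4 to 6 it was 0.15, with 76 positive and 9 negative. Over all genes both of these medians were 0.01. The intervene-control medians of the members were -0.07 and 0.12 in the same order. The pooled medians thus average shifts of opposite sign, which carry no test of their own.

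The libraries of the 3 groups overlapped widely for the members at the centre of each complex. Atp5b ranged from 1422 to 1553 CPM in control, from 1308 to 1668 CPM in model and from 1317 to 1710.2 CPM in intervene. Sdha ranged from 390.0 to 418 CPM in control, from 361 to 427 CPM in model and from 370.2 to 444 CPM in intervene. Cox4i1 ranged from 814 to 1105 CPM in control, from 865 to 1211 CPM in model and from 821 to 1186 CPM in intervene. For each of these genes the intervene libraries spanned nearly the whole range of the other groups.

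**Figure D2:**
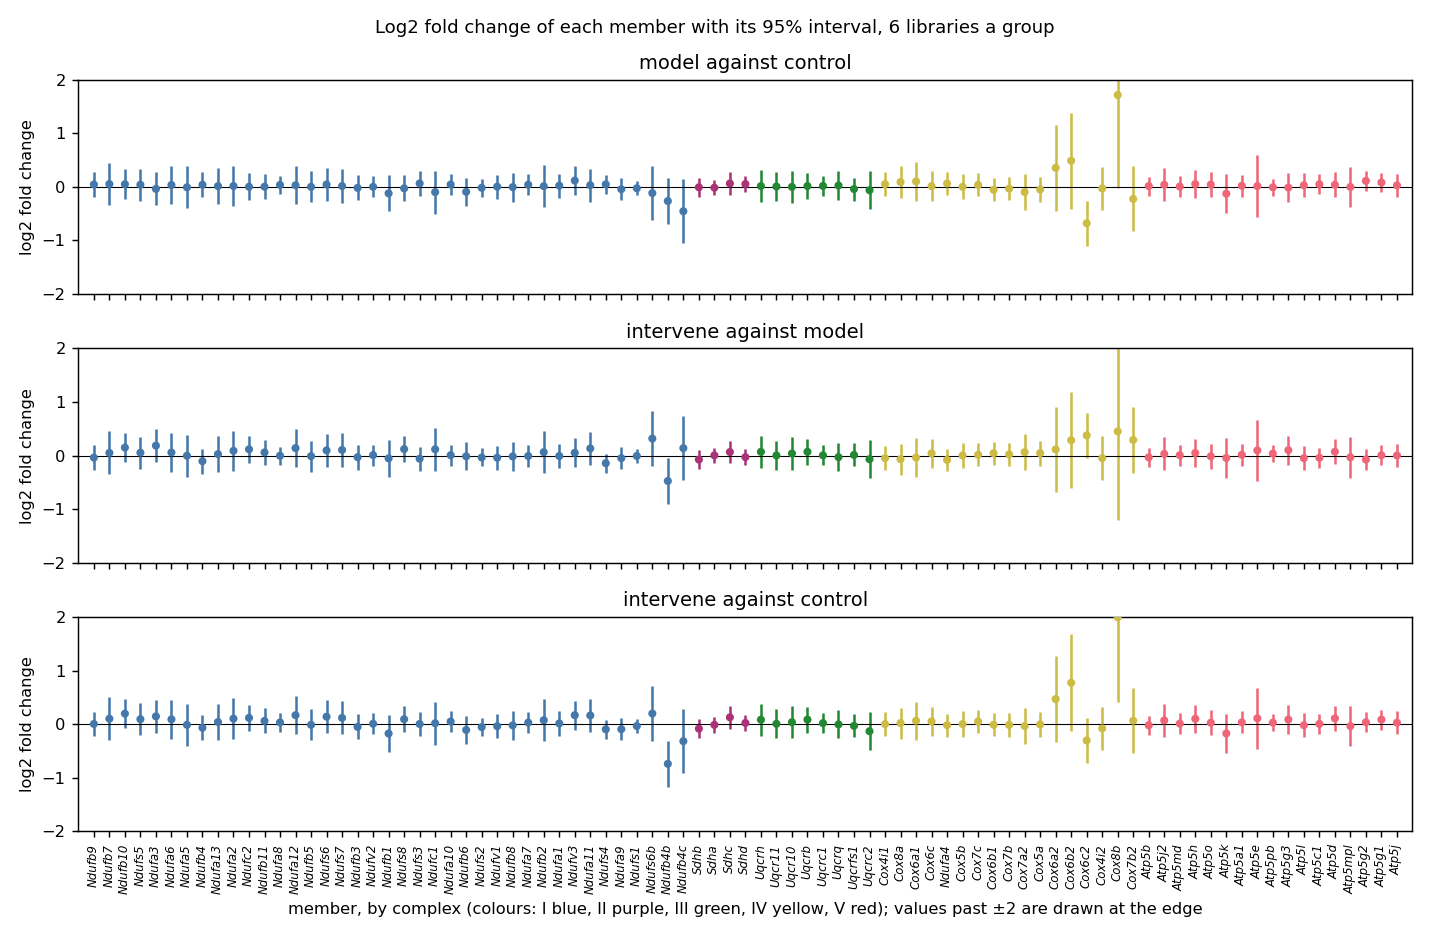
Log2 fold change of each of the 85 members in the 3 group comparisons, with its 95% interval, ordered by complex and level. The 76 members of at least 10 FPKM lie between -0.17 and 0.20 in all 3 panels, and wide intervals belong to low isoforms and further gene copies.

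The pooled intervals describe the average over both replicate sets and do not bound a change within either set. Ndufb10, for example, had a pooled intervene-control difference of 0.20 (95% interval -0.08 to 0.48). Its difference was -0.14 within replicates 1 to 3 and 0.58 within replicates 4 to 6. Among the 76 members with a mean of at least 10 FPKM, log2 fold changes lay between -0.13 and 0.12 in the model-control, between -0.14 and 0.19 in the intervene-model and between -0.17 and 0.20 in the intervene-control comparison, with a median standard error of 0.11. The 95% interval lay within 0.5 log2 units of 0 for 76, 75 and 72 of the 85 members in the same order. It lay within 1 log2 unit for 80, 83 and 81. Atp5e (the epsilon subunit of the ATP synthase head) was the broadly expressed member outside 0.5 units in all 3 comparisons, with log2 differences of 0.01 ± 0.27 (standard error, here and below), 0.10 ± 0.27 and 0.11 ± 0.27.

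The lowest p-values in the group comparisons belonged to genes of low level. Cox6c2, a further copy of the Cox6c gene, had a median of 2.52 CPM in control (range 1.57 to 3.2), 1.41 in model (1.19 to 2.01) and 2.07 in intervene (1.28 to 2.3). Its model-control difference was -0.68 ± 0.20 log2 units with an edgeR adjusted p of 1.00. Ndufb4b, a further copy of Ndufb4, had medians of 2.21, 1.65 and 1.23 CPM in control, model and intervene, and its intervene-control difference was -0.74 ± 0.20 (edgeR adjusted p = 0.356). Reads of such copies can also come from the main gene, so these values are uncertain.

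Larger differences lay between the replicate sets within a group. In control, replicates 4 to 6 had lower levels than replicates 1 to 3 for 33 members (19.6% of all genes tested were called lower) and higher levels for 4 (18.6% of all genes were called higher). The members' median difference was -0.28 log2 units, against -0.02 for all genes. In model 2 members were lower (9.78% of all genes) and 7 higher (8.91%), with a median of 0.01. In intervene 8 were lower (7.16% of all genes) and 7 higher (7.76%), with a median of -0.04. Read against the background, the members of control were called lower more often and higher less often than all genes tested, and those of model were called lower less often. The shares called higher in model and in either direction in intervene were close to the background. These readings carry no test of their own.

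**Figure D3:**
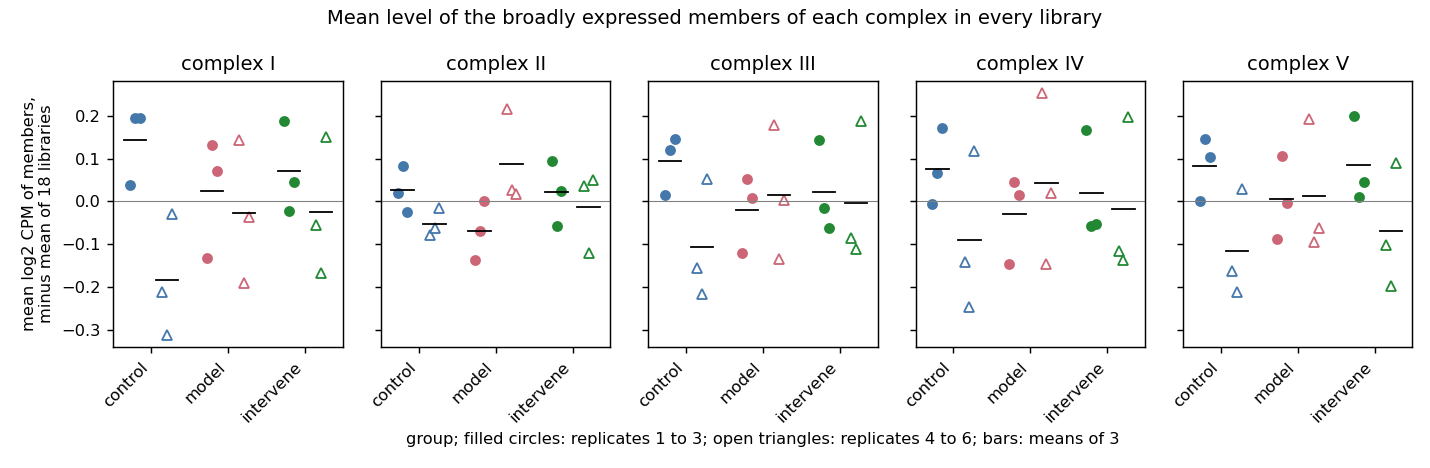
Mean log2 CPM of the broadly expressed members of each complex in every library, minus the mean of 18 libraries, with filled circles for replicates 1 to 3, open triangles for replicates 4 to 6 and bars for means of 3. Control replicates 4 and 5 are the lowest libraries for complexes I and III, and control replicate 6 lies closer to the other groups.

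Within control the calls fell unevenly over the complexes, while the median differences were negative in all of them. These medians were -0.39 in complex I, -0.02 in complex II, -0.35 in complex III and -0.27 in complex V. The complexes were not tested against each other. Of the 20 accessory subunits of the complex I membrane arm, 13 were lower and 0 higher, and of the 9 accessory subunits of the matrix arm 7 were lower and 0 higher. The 7 core redox subunits gave 1 lower and 2 higher. Complex II had 1 of 4 lower, complex III 2 of 8 lower and 1 higher, and complex V 7 of 17 lower and 1 higher. Of the 11 broadly expressed subunits of complex IV, 0 were called (2 at an unadjusted p under 0.05), with a median of -0.22. DESeq2 called 36 members lower and 4 higher.

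Ndufb7, an accessory subunit on the intermembrane-space side of complex I, measured 201, 245 and 232 CPM in control replicates 1 to 3 and 131, 112 and 159 CPM in replicates 4 to 6. The sets did not overlap, and the difference was -0.76 ± 0.17 log2 units (edgeR adjusted p = 0.00245). Ndufa13 (also GRIM-19), needed for complex I assembly, measured 307, 366 and 391 CPM against 218, 199 and 266 CPM. Its difference was -0.64 ± 0.15 (adjusted p = 0.00284), again with no overlap. Ndufa5, an accessory subunit of the matrix arm, measured 183, 214 and 249 CPM against 125, 118 and 159 CPM, a difference of -0.69 ± 0.16 (adjusted p = 0.00344). In each of these genes control replicate 5 was the lowest of the 6 libraries and replicate 6 the highest of its set.

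The same direction held for members of other complexes. Uqcrh of complex III measured 289, 357 and 329 CPM in control replicates 1 to 3 and 219, 213 and 257 CPM in replicates 4 to 6, a difference of -0.50 ± 0.13 (adjusted p = 0.00656). Atp5j2 (now Atp5mf), a small membrane subunit of the ATP synthase, measured 263, 316 and 282 CPM against 175, 177 and 225 CPM, a difference of -0.58 ± 0.14 (adjusted p = 0.00352). Sdhc, an anchor of complex II, measured 157, 173 and 147 CPM against 114, 118 and 131 CPM, a difference of -0.39 ± 0.10 (adjusted p = 0.00611). All 3 genes were without overlap between the sets.

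The 4 members that were higher in control replicates 4 to 6 encode core subunits of complexes I and III and the alpha subunit of ATP synthase. Uqcrc2, a core protein of complex III, measured 121, 100.2 and 101 CPM in replicates 1 to 3 and 159, 164 and 154 CPM in replicates 4 to 6, a difference of 0.57 ± 0.11 (adjusted p = 0.00118). Ndufv1 rose by 0.30 ± 0.10 (adjusted p = 0.0292), Ndufs3, a core subunit of the complex I matrix arm, by 0.28 ± 0.10 (adjusted p = 0.036) and Atp5a1 (now Atp5f1a), the alpha subunit of the ATP synthase head, by 0.26 ± 0.08 (adjusted p = 0.0242). Ndufv1 measured 159, 170.2 and 154 CPM in replicates 1 to 3 and 206, 197 and 191 CPM in replicates 4 to 6, again without overlap. The Ndufv1 call was lost without control replicate 1, 3, 4 or 5 (adjusted p = 0.0721, 0.0876, 0.0932 and 0.0653), with unfiltered counts and with scaling by library totals. The Ndufs3 call was lost without control replicate 2, 3, 4 or 6 (adjusted p = 0.119, 0.0774, 0.105 and 0.105) and the Atp5a1 call without control replicate 2, 3, 4 or 5 (adjusted p = 0.0641, 0.0798, 0.0604 and 0.0887), both also under those settings.

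**Figure D4:**
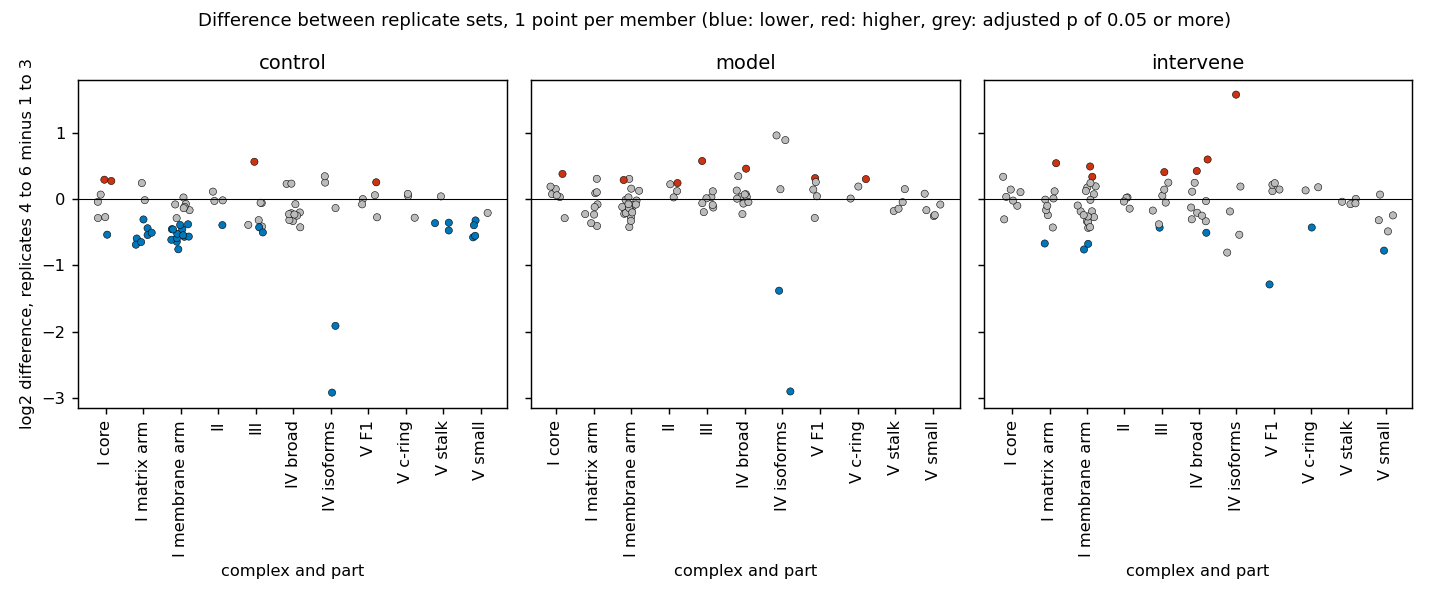
Log2 difference between replicates 4 to 6 and replicates 1 to 3 for each member by complex and part, further gene copies left out, in control, model and intervene (red higher, blue lower, grey not called). In control the accessory subunits of complex I carry most of the blue points. Their membrane-arm and matrix-arm medians are -0.10 and -0.12 in model. In intervene these medians are -0.18 and -0.10, with points from -0.76 to 0.50 and from -0.67 to 0.55 and calls in both directions.

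The number of members called lower in control depended on single libraries. It was 20 without control replicate 2, 20 without replicate 4 and 17 without replicate 5, and 40 without replicate 6. The share of all genes called is not given for these runs. The reading against the background therefore holds for the full set of libraries only. The 4 higher members became 2 without control replicate 2 or 5 and 1 without replicate 3 or 4. The set difference in control also leaned lower in shorter members, while the members called lower were both short and long. With the broadly expressed members split at 700 bases, 15 of 32 short and 16 of 44 long ones were called lower. Their medians were -0.37 and -0.22. Over the 76 broadly expressed members, the set difference and the gene length had a Spearman rho of 0.37 in control, 0.31 in model and 0.22 in intervene. Over 10037 genes of at least 10 CPM the values were 0.19, -0.07 and -0.11. The points share the same libraries, and these values are a description across genes, which are not independent.

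The model group shared part of this picture. Uqcrc2 measured 117, 80.4 and 109.8 CPM in model replicates 1 to 3 and 155, 146 and 157 CPM in replicates 4 to 6, a difference of 0.58 ± 0.11 (adjusted p = 0.00384). In intervene it measured 104, 109.8 and 99.7 CPM against 146, 133 and 138 CPM, a difference of 0.41 ± 0.11 (adjusted p = 0.0247). Uqcrc2 was the 1 member called in the same direction in all 3 groups, and its sets did not overlap in any of them. The intervene call was lost with scaling by library totals (adjusted p = 0.11), on the deposited FPKM and without each of intervene replicates 1, 3, 4, 5 and 6. Ndufs3 rose by 0.38 ± 0.10 (adjusted p = 0.0155) and Atp5a1 by 0.32 ± 0.08 (adjusted p = 0.0168) in model replicates 4 to 6, and both were called in control as well. Both model calls were lost without model replicate 2 or 4 (adjusted p = 0.0646 and 0.0873 for Ndufs3, 0.0945 and 0.0819 for Atp5a1).

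In model, Cox6a1 and Atp5g2 (a gene for the c-ring of ATP synthase), Ndufc2 and Sdhd were also higher in replicates 4 to 6, by 0.46 ± 0.15, 0.31 ± 0.10, 0.29 ± 0.09 and 0.25 ± 0.08. The 4 calls were lost without model replicate 2 or 4 (adjusted p of 0.0946 to 0.188), and each also without at least 1 other model replicate. The 2 lower members were Cox6b2 and Cox8b. The count of 7 higher members in model became 1 without model replicate 2 or 4, 3 without replicate 6 and 10 without replicate 5. The 2 lower members became 5 without model replicate 1 and 1 without replicate 2, 5 or 6.

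In intervene, the set differences took another form. Atp5e measured 219.8, 166 and 199.7 CPM in replicates 1 to 3 and 86.1, 68.1 and 85.7 CPM in replicates 4 to 6. The difference was -1.29 ± 0.24 log2 units (adjusted p = 0.00497), and it passed the threshold under every alternative run for it. In control Atp5e measured 113, 177 and 128 CPM against 105, 111 and 130.3 CPM, and in model 144, 182 and 97.2 CPM against 144, 126 and 78.1 CPM, so that the sets overlapped in both. Atp5mpl, a small proteolipid of the ATP synthase, was lower by -0.78 ± 0.15 (adjusted p = 0.00437), at 185, 141 and 155 CPM against 96.7, 79.2 and 105 CPM. Further lower members were Ndufb2 (-0.76 ± 0.16), Ndufc1 (-0.67 ± 0.16), Ndufa2 (-0.67 ± 0.17), Cox7a2 (-0.51 ± 0.17), Uqcrfs1 (-0.43 ± 0.10) and the c-ring gene Atp5g3 (-0.43 ± 0.14). Without intervene replicate 1 or 5 the calls of Ndufc1, Ndufa2, Cox7a2, Uqcrfs1 and Atp5g3 were lost (adjusted p of 0.0554 to 0.193), those of Cox7a2 and Atp5g3 also without replicate 3 or 4, and that of Atp5g3 without replicate 6.

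Higher in intervene replicates 4 to 6 were subunits of complexes I, III and IV. Ndufc2, a membrane-arm subunit of complex I, measured 131, 134 and 125 CPM in replicates 1 to 3 and 157, 191 and 202 CPM in replicates 4 to 6, a difference of 0.50 ± 0.09 (adjusted p = 0.00443). Cox6a1 rose by 0.60 ± 0.15 (adjusted p = 0.0175), Cox8a by 0.43 ± 0.14 (adjusted p = 0.043) and Ndufa10 by 0.34 ± 0.10 (adjusted p = 0.0297). The isoform Cox6a2 measured 4.32, 9.84 and 7.33 CPM against 18.9, 17.4 and 28.2 CPM, a difference of 1.58 ± 0.36 (adjusted p = 0.0115). Of 7 parvalbumin interneuron markers, 0 were higher and 1 lower between the same sets, with a median of -0.05, and the part of those cells in the Cox6a2 difference was not tested. Without intervene replicate 1 or 6 the calls of Cox6a1, Cox6a2, Cox8a and Ndufa10 were lost (adjusted p of 0.0507 to 0.205), those of Cox6a1, Cox8a and Ndufa10 also without replicate 3, and that of Cox8a without replicate 2 or 5. With scaling by library totals intervene had 4 members higher and 19 lower in place of 7 and 8. The 7 higher members became 1 without intervene replicate 1 or 6 and 2 without replicate 3, and the 8 lower became 3 without replicate 1 or 5 and 13 without replicate 2.

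Ndufa12, an accessory subunit of the matrix arm of complex I, was called in opposite directions in 2 groups. In control it measured 211, 213 and 241 CPM in replicates 1 to 3 and 144, 130.1 and 167 CPM in replicates 4 to 6, a difference of -0.59 ± 0.15 (adjusted p = 0.00449). In model it measured 157, 204 and 218 CPM against 199.9, 150.2 and 199.7 CPM, with overlapping sets and a difference of -0.08 ± 0.14 (adjusted p = 0.74). In intervene it measured 176, 168 and 162 CPM against 217, 229 and 292 CPM, a difference of 0.55 ± 0.15 (adjusted p = 0.0203). The intervene call was lost without intervene replicate 1, 3 or 6 (adjusted p = 0.053, 0.0713 and 0.118).

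**Figure D5:**
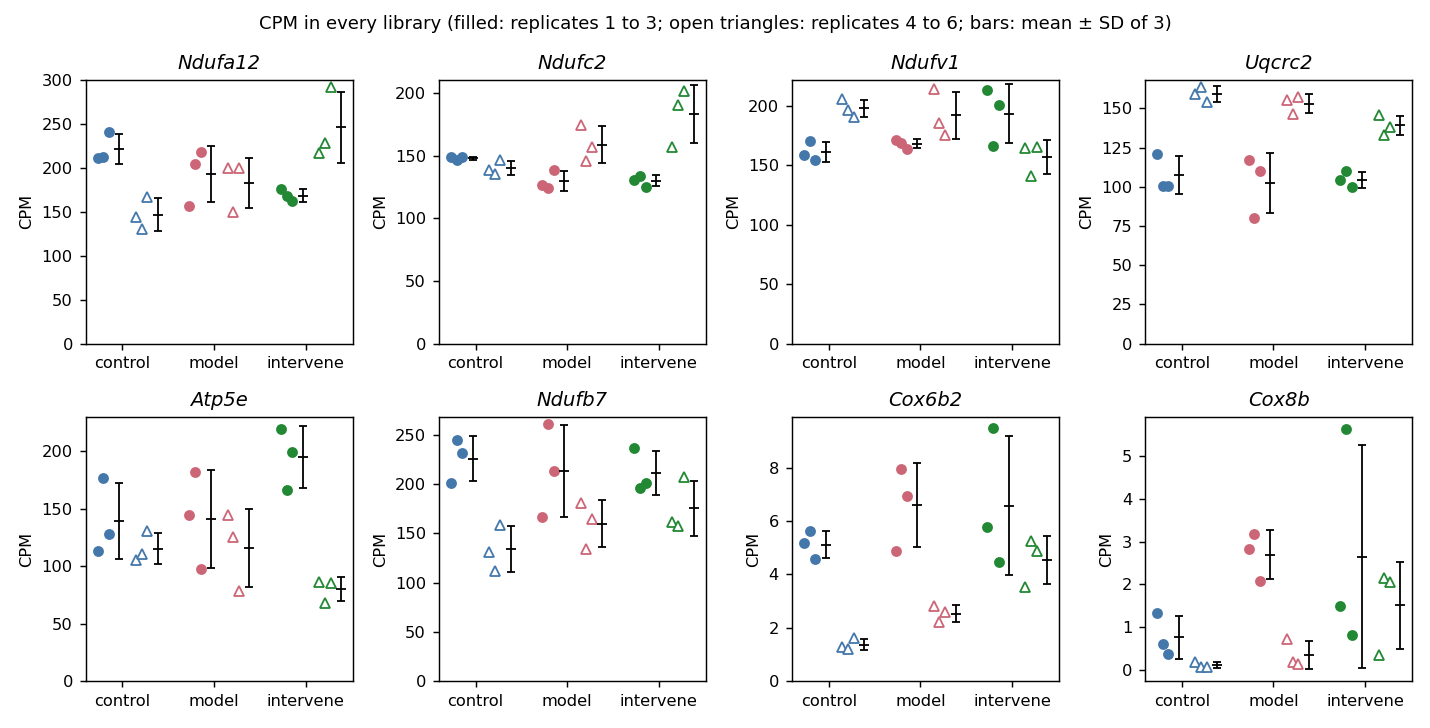
CPM of 8 members in every library, with filled circles for replicates 1 to 3, open triangles for replicates 4 to 6 and bars for mean ± SD of 3. Ndufa12 falls between sets in control and rises in intervene, Uqcrc2 rises in all 3 groups, and Atp5e falls in intervene.

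Comparing groups inside a set removed the difference between sets from the spread. Within replicates 1 to 3, 0 of 85 members were called in each of the 3 comparisons (0% of all genes), with 3 (model-control), 4 (intervene-model) and 4 (intervene-control) members at an unadjusted p under 0.05. Neither DESeq2 nor limma-voom called a member there. Within replicates 4 to 6, model against control gave 0 members (0% of all genes; 7 at an unadjusted p under 0.05; 0 by DESeq2 and limma-voom). Intervene against model gave 0 (3.66% of all genes were higher and 2.05% lower), with 14 at an unadjusted p under 0.05, 1 called by DESeq2 and 0 by limma-voom. Intervene against control gave 10 members higher (14.7% of all genes) and 1 lower (11.2% of all genes).

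The share of members called higher was thus near that of all genes tested, and the share called lower was below it. Neither reading was tested. The 10 higher members comprised 7 of complex I, 1 of complex III and 2 isoforms of complex IV. Ndufa12 differed by 0.74 ± 0.15 log2 units (adjusted p = 0.00172), with control at 130.1 to 167 CPM and intervene at 217 to 292 CPM. Ndufb10, a membrane-arm subunit, measured 186, 166 and 199 CPM in control and 239, 264 and 320.1 CPM in intervene, a difference of 0.58 ± 0.13 (adjusted p = 0.00439). Ndufa11 differed by 0.56 ± 0.15, Ndufa3 by 0.55 ± 0.15, Ndufv3 by 0.50 ± 0.14, Ndufs8 by 0.40 ± 0.13 and Ndufc2 by 0.39 ± 0.09. Uqcrb, a small subunit of complex III, measured 118, 109 and 136 CPM in control and 140.2, 161 and 188 CPM in intervene, a difference of 0.44 ± 0.11 (adjusted p = 0.011). The 1 lower member was Ndufv1, at 206, 197 and 191 CPM in control and 165, 141 and 165 CPM in intervene (-0.34 ± 0.10, adjusted p = 0.0231). The control and intervene libraries of each gene whose values are given here did not overlap.

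These calls moved with single libraries. The 10 higher members became 4 without control replicate 5, 5 without intervene replicate 6 and 17 without control replicate 6. The Ndufv1 call was lost without control replicate 4 or 5 or intervene replicate 5 (adjusted p = 0.082, 0.0604 and 0.106). The calls of Ndufa11, Ndufa3, Ndufv3, Ndufs8 and Uqcrb were lost without control replicate 5 or intervene replicate 6 (adjusted p of 0.0567 to 0.149), and those of Ndufa3 and Ndufs8 also without control replicate 4. The isoform Cox8b, at 6, 4 and 2 counts in control and 10, 64 and 60 in intervene, differed by 3.82 ± 0.96 (adjusted p = 0.00946), and its call was lost without control replicate 5 (adjusted p = 0.055) and with limma-voom (adjusted p = 0.0717). In the same comparison 10 of 14 thalamic neuron markers were higher and 2 lower, 8 of 9 oligodendrocyte markers were higher, and 8 of 8 ependyma markers were higher. The part of these cell types in the members' differences was not tested.

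Whether the intervene-control difference itself differed between the sets was tested as an interaction. The signed log2 difference was more positive in replicates 4 to 6 than in replicates 1 to 3 for 9 members (9.54% of all genes). It was more negative for 1 (8.37% of all genes). The test concerns the signed difference and not its size. Among the called members of complex I, Ndufa12 changed most, by 1.14 ± 0.21 log2 units (adjusted p = 0.00232), from control above intervene in replicates 1 to 3 to intervene above control in replicates 4 to 6. Uqcrb changed by 0.68 ± 0.16 (adjusted p = 0.0101) and Ndufc2 by 0.57 ± 0.13 (adjusted p = 0.00862). Both also reversed in sign, from -0.24 and -0.19 in replicates 1 to 3, where neither was called. Ndufv1 changed by -0.60 ± 0.14 (adjusted p = 0.0101), from a difference of 0.26 in replicates 1 to 3 to a negative one in replicates 4 to 6. In replicates 1 to 3 it measured 214, 166 and 201 CPM in intervene and 159, 170.2 and 154 CPM in control. The same test gave 0 members for model against control (0% of all genes; 9 at an unadjusted p under 0.05; 0 by DESeq2 and limma-voom). For intervene against model it gave 0 members (0.276% of all genes were higher and 0.0759% lower; 11 at an unadjusted p under 0.05; 1 lower by DESeq2 and 0 by limma-voom). The 9 became 4 without control replicate 5, and 5 without control replicate 4 or intervene replicate 6.

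Among the low isoforms, Cox6b2 followed the sets most closely. It measured 5.16, 5.61 and 4.57 CPM in control replicates 1 to 3 and 1.28, 1.21 and 1.59 CPM in replicates 4 to 6, a difference of -1.91 ± 0.27 (adjusted p = 8.53e-05). In model it measured 4.88, 7.96 and 6.93 CPM against 2.79, 2.19 and 2.59 CPM, a difference of -1.38 ± 0.26 (adjusted p = 0.00288). In intervene the sets overlapped, at 5.78, 9.48 and 4.47 CPM against 3.52, 5.23 and 4.86 CPM (-0.54 ± 0.25, adjusted p = 0.161). Its broadly expressed partner Cox6b1 was called in none of the set comparisons. As a share of the Cox6b pair, Cox6b2 was 1.26% ± 0.184 in control replicates 1 to 3 and 0.400% ± 0.0141 in replicates 4 to 6 (SD, n = 3). Within replicates 4 to 6 the intervene-control difference was 1.74 ± 0.27 (edgeR adjusted p = 0.000416).

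Cox8b was at the limit of counting in several libraries. Its counts were 162, 20 and 10 in control replicates 1 to 3 and 6, 4 and 2 in replicates 4 to 6, so fold changes rest on few reads. On the CPM scale it measured 1.33, 0.603 and 0.36 against 0.192, 0.0694 and 0.0664 in control, and 2.82, 3.18 and 2.07 against 0.726, 0.178 and 0.14 in model. Both were called lower (adjusted p = 0.0257 and 0.0254). The control call was lost without control replicate 1, 5 or 6 (adjusted p = 0.129, 0.107 and 0.0751) and the model call without model replicate 2, 5 or 6 (adjusted p = 0.0794, 0.0827 and 0.0927). In intervene it measured 1.5, 5.63 and 0.808 against 0.338, 2.15 and 2.05, with overlapping sets.

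The choroid plexus markers moved between the same libraries. Their 10 genes summed to 70.49 to 764.67 CPM in control replicates 1 to 3 and 5.13 to 8.04 CPM in replicates 4 to 6. In model they summed to 3366.7 to 5682.51 CPM against 63.92 to 117.49 CPM, and in intervene to 100.15 to 10493.16 CPM against 136.54 to 4131.22 CPM. Ttr, the most abundant of them, was highest in intervene replicate 2 at 10069 CPM, the library with the highest Cox8b. It was lowest in control replicates 4 to 6 at 0.256, 0.59 and 0.399 CPM, where Cox8b was also low. The order did not hold throughout. Intervene replicate 4 had more Ttr than replicate 3 (101 against 64.2 CPM) but less Cox8b. Control replicate 2 had less Ttr than replicate 1 (23.5 against 688 CPM) but more Cox6b2. None of the 10 markers was at 0 throughout a set, and the part of the choroid plexus in the values of Cox8b and Cox6b2 was not tested.

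Other genes of mitochondrial energy metabolism were counted from fixed lists for the same comparison of sets. Of all genes tested, 18.6% were called higher and 19.6% lower in control, and 8.91% and 9.78% in model. In intervene 7.76% were called higher and 7.16% lower. The list counts here and below are to be read beside these shares. The 13 mitochondrially encoded subunits gave 1 lower in control (ND3, -1.10 ± 0.31) and 0 called in model and intervene, with medians of -0.59, -0.44 and 0.38 log2 units and wide spread. Within replicates 4 to 6, 7 of the 13 were higher in intervene than in control (14.7% of all genes), with a median of 0.89. They summed to 95405.79 to 169049.38 CPM in intervene and 59659.07 to 92706.75 CPM in control. ND2 differed by 1.29 ± 0.30 (adjusted p = 0.00595) and ND4 by 1.08 ± 0.24 (adjusted p = 0.00486).

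Assembly factors, which build the complexes without being part of them, gave 6 higher and 3 lower of 43 in control. The copper chaperone Cox17 was lower by -0.63 ± 0.16 and Atpaf1, an ATP synthase assembly factor, higher by 0.70 ± 0.17. In model 3 were higher, Atpaf1 among them (0.92 ± 0.18), and in intervene 6 were lower, led by Cox14 (-0.63 ± 0.12). Of 18 citric acid cycle genes, 4 were higher and 1 lower in control and 3 were higher in both model and intervene. Pdha1, a subunit of pyruvate dehydrogenase, rose by 0.84 ± 0.13 in control, 0.55 ± 0.13 in model and 0.44 ± 0.13 in intervene.

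Of 16 glycolysis genes, 11, 10 and 7 were higher and 0 lower in control, model and intervene, with medians of 0.36, 0.35 and 0.30 log2 units. Pgam1, phosphoglycerate mutase, rose by 0.68 ± 0.12, 0.59 ± 0.12 and 0.43 ± 0.12. The cytosolic ribosomal proteins gave 60 lower of 80 in control with a median of -0.47, 4 lower in model and 11 lower and 2 higher in intervene. The 78 mitochondrial ribosomal proteins gave 16 lower and 2 higher in control, 8 higher in model and 13 higher and 2 lower in intervene. Their shares called lower in control and higher in model were near those of all genes. Regulators of mitochondrial biogenesis gave 2 higher (Polg, Tfb2m) and 2 lower (Esrrb, Pprc1) of 16 in control. Electron carriers and other chain proteins outside the symbol rule gave 3 lower of 13 there, among them the acyl carrier protein Ndufab1 (-0.38 ± 0.11).

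Region and cell type markers differed between the sets of the same groups. In control replicates 4 to 6, 9 of 14 thalamic neuron markers were lower and 1 higher, and 9 of 15 cortical and hippocampal neuron markers were higher and 1 lower. Oligodendrocyte markers were lower for 8 of 9 and ependyma markers for 8 of 8. In model 7 of 14 thalamic markers and 8 of 9 oligodendrocyte markers were lower. In intervene 1 of 14 thalamic and 4 of 9 oligodendrocyte markers were lower. There 6 of 8 endothelium markers (median -0.82) and 4 of 9 pericyte and smooth muscle markers (median -0.51) were lower as well. In control and model 0 endothelium markers were called, and of the pericyte and smooth muscle markers 3 were higher in control and 0 were called in model. The median of the 12 pan-neuronal markers differed by 0.14, 0.05 and 0.14 log2 units in control, model and intervene, and that of the 9 microglia markers by 0.00, 0.07 and 0.00. Single microglia markers in intervene ran from -1.01 to 0.96, with 1 called higher and 2 lower. The part of these shifts in the members' set differences was not tested.

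The set differences were also set beside the promoter motifs. In control the 13 members with an NRF1 motif had a median of -0.16 log2 units with 6 lower, and the 55 tested members without it had -0.28 with 23 lower. The 12 members with an ETS motif had a median of -0.29 with 5 lower, and the 56 without it had -0.28 with 24 lower. In model 3 of the 13 members with an NRF1 motif and 2 of the 55 without it were higher, with medians of -0.02 and -0.01. There 3 of the 12 members with an ETS motif and 2 of the 56 without it were higher, with medians of -0.03 and -0.01. In intervene the medians with and without the NRF1 motif were 0.03 and -0.06, and with and without the ETS motif -0.06 and -0.01. These are descriptions with no test.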

How the data were processed

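RNA was isolated with TRIzol and captured with oligo(dT) beads, per the labels' protocols. The submitters' processing notes name HISAT2 and featureCounts with the GRCm39 build and no versions. The authors deposited raw counts and FPKM for 50559 genes in 18 libraries. Of deposited counts between 1 and 20, 82.1% were even, the pattern left when both reads of a pair are counted, so a count is not always an independent molecule. The deposited FPKM equal the count divided by the column total and an implied length that was even for 18117 of 18117 genes and 2 times the RefSeq length for 13 of 13 mitochondrially encoded mRNAs. FPKM were used for levels per length and as an alternative.

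The test was edgeR's (4.0.16, R 4.3.3) on the counts (quasi-likelihood F test, robust, TMM after filterByExpr, 18452 genes, Benjamini-Hochberg at 0.05). The 3 group comparisons used 1 mean per group, and 12 others 1 mean per group and replicate set; the tests were run on simulated data first. CPM are TMM-scaled, log2 CPM have a prior count of 2, and the standard error is the log2 fold change over the square root of F. Alternatives used limma 3.58.1 and DESeq2 1.42.0. Members, lists and tests were chosen with earlier results of these data known. Genes named were the most abundant of each complex, the called members of lowest p per complex, isoforms with their partners, catalytic subunits and the extremes between sets.

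Libraries of 1 number in different groups are not stated to be paired. Deviations from the group means correlated at 0.18 to 0.63 in 6 of 6 model-control pairs, over the limit of 0.1, at -0.13 to 0.35 for intervene and model (5 of 6 over it) and at -0.14 to 0.38 for intervene and control (3 of 6). Taken from the means of the replicate sets instead, they were -0.18 to 0.24 (3 of 6 over it), -0.18 to 0.12 (1 of 6) and -0.29 to 0.07 (0 of 6) in the same order. No library repeated another of its group within sampling noise (smallest chi-square per degree of freedom 11.4).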

Additional observations from a re-analysis of the deposited data

Results flagged for a closer look

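For each member chosen by the rule for named genes, the mean of each complex and the members' share of counts, the 6 libraries of each group were checked for 1 that stood apart from the other 5 (a gap to its nearest neighbour over Dixon's 95% critical share of the range). This was so in 10 of 180 checks, and chance alone flags about 5%. In control, replicate 2 stood high for Atp5g3 (469.5 CPM), Uqcrfs1 (182 CPM) and Atp5e (177 CPM), and replicate 6 for Atp5g2 (103 CPM) and the gene copy Ndufb4c (1.79 CPM). In model, replicate 4 stood high for Sdhb (219 CPM). In intervene, replicate 6 stood high for Atp5d (532 CPM) and Ndufa11 (251 CPM), replicate 2 for Cox8b (5.63 CPM), and replicate 4 stood low for the gene copy Cox6c2 (1.28 CPM).

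For 10 members the intervene-control difference itself differed between replicates 4 to 6 and replicates 1 to 3, by the interaction test in edgeR. Of all genes tested, 9.54% had a more positive log2 difference in replicates 4 to 6 and 8.37% a more negative one. The members' share was near the first of these and below the second. On the log2 scale the change was 1.38 for Cox6b2, 1.14 for Ndufa12, 0.74 for Ndufa11, 0.74 for Ndufa3, 0.72 for Ndufb10, 0.68 for Uqcrb, 0.63 for Ndufv3, 0.62 for Ndufs8, 0.57 for Ndufc2 and -0.60 for Ndufv1. The labels do not say what the replicate numbers stand for.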

How the results depend on the processing

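No called member or count changed direction under any alternative, and the 0 members of the 3 group comparisons stayed 0 under all of them. The replicate block, the replicate number as a term in the fit, left those counts at 0 and left 10 higher and 1 lower for intervene against control within replicates 4 to 6; it changed no other call. Across single named members, 1315 results kept their side of the threshold, 197 lost it and 5 gained it.

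Scaling by library totals gave 1 member higher between the control sets (4 with TMM), and 4 higher and 19 lower between the intervene sets (7 and 8). Unfiltered counts gave 1 higher in control, and 4 higher and 1 lower in model. DESeq2 gave 14 lower in intervene, 1 higher for intervene against model within replicates 4 to 6 and 1 lower for its interaction. The deposited FPKM with a pseudocount of 1 gave 2 higher in control and 20 lower in intervene, and with 0.1 gave 21 lower. Library totals and both FPKM fits gave 2 lower for intervene against control within replicates 4 to 6. In its interaction RLE scaling, library totals, DESeq2, limma-voom and both FPKM fits each gave 2 lower. The causes of these shifts were not tested.

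Leaving out 1 library at a time gave 1 to 3 higher and 17 to 40 lower in control, 1 to 10 higher and 1 to 5 lower in model, and 1 to 9 higher and 3 to 13 lower in intervene. Within replicates 4 to 6 it gave 0 to 2 higher for intervene against model, and 4 to 17 higher and 0 to 1 lower for intervene against control. The interaction gave 0 to 1 lower for intervene and model, and 4 to 11 higher and 1 to 3 lower for intervene and control. Shares of all genes are not given for these runs. Depth limits Cox8b in the libraries where it had as few as 2 counts.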
